A study of Mus musculus with 3 samples.

Results

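The 8 genes described here make or handle oxidants in phagocytes: Cybb, Cyba, Ncf1, Ncf4 and Rac2 of the NADPH oxidase, the superoxide dismutases Sod1 and Sod2, and the inducible nitric oxide synthase Nos2. They were chosen by name, and each symbol was found in the transcript annotation and joined by its gene identifier to the gene table, so that all 8 of 8 were found among 55536 annotated genes, of which 21951 are protein-coding. RNA was measured in the chromatin fraction of macrophages grown from bone marrow of C57BL/6J mice and stimulated for 15 min with 100 ng/ml lipid A, the lipid anchor of bacterial lipopolysaccharide, sensed by TLR4. There was 1 group of 3 biological replicates, depleted of ribosomal RNA, and sequenced from 1 µg, 250 ng and 500 ng of RNA in replicates 1, 2 and 3. All share these conditions and the same donor label under separate sample labels, with age and sex not collected, so their spread may be smaller than that between animals. No unstimulated library was analysed here, so the values are levels at 15 min and not changes, and no test between groups was made.

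The phagocyte NADPH oxidase is a membrane flavocytochrome, made of the products of Cybb and Cyba, that passes electrons from NADPH across the membrane to oxygen and so makes superoxide. It is idle until cytosolic subunits, among them those encoded by Ncf1 and Ncf4, and a Rac GTPase join it, as happens after microbes are sensed. Sod1 in the cytosol and Sod2 in mitochondria turn superoxide into hydrogen peroxide, and the Nos2 enzyme makes nitric oxide from arginine in activated macrophages. In RNA from chromatin, much of a gene's signal comes from transcripts that are still being made or spliced, so introns and partly spliced isoforms carry weight.

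Library depth in expected counts was 10974934 for replicate 1, 21376404 for replicate 2 and 14376665 for replicate 3, and protein-coding genes took 23.9%, 16.6% and 25.3% of the TPM (transcripts per 1000000) there. All 8 macrophage markers had at least 1 TPM in all 3 libraries, where 42.6% of all protein-coding genes did. Among these markers were Lyz2 at 189 ± 96.8, Csf1r at 159 ± 37.4 and Mertk at 110 ± 17.0 TPM (SD, n = 3). In the gene table, of 12 markers of neutrophils and granulocyte precursors, 0 did, 3 of them (Elane, Ly6g and Retnlg) had no count, and their summed level was 1.99, 2.52 and 1.55 TPM in replicates 1, 2 and 3. That list bears on the oxidase, which neutrophils also carry. The same count was 0 for 5 markers of T and NK cells, 4 of B cells, 4 of dendritic cells, 4 of mast cells and basophils, and 4 of stroma and endothelium. In the second quantification, which the authors made directly from the reads, markers with a mean of at least 1 TPM numbered 2 of the 12 for neutrophils, 2 for T and NK cells, 0 for B cells, 2 for dendritic cells, 1 for mast cells and basophils, and 2 for stroma and endothelium. Among them Cd3d, a subunit of the T cell receptor complex with 0, 1 and 0 counts in the gene table, was at 16.7, 11.5 and 20.2 TPM there, while Pecam1 averaged 5.76, Zbtb46 3.06 and the neutrophil receptor gene Cxcr2 2.66 TPM. By the mean, Zbtb46 also reached 1 TPM in the gene table, at 1.32 TPM, and was left out there by the rule of all 3 libraries. The tables thus differ on several of these markers, and the part of other cells in the levels below was not tested.

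Several of these genes have annotated isoforms that keep part of an intron, and the counts of those isoforms set many of the values below. The sequences at 5 such unspliced borders are shown, since they are where the intron-bearing isoform parts from the spliced one. They are transcript sequences of GENCODE M21 on mm10, written 5′ to 3′ on the gene's strand, with intron bases in capitals and exon bases in lower case. The borders are the end of exon 3 of Cybb (chrX:9465584-9465673, minus strand), the start of exon 3 of Ncf1 (chr5:134227496-134227585, minus strand), the end of exon 10 of Ncf1 (chr5:134221970-134222059, minus strand), the start of exon 3 of Sod2 (chr17:13010460-13010549, plus strand) and the end of exon 1 of Sod1 (chr16:90220900-90220989, plus strand).
Cybb-202, exon 3 into intron 3: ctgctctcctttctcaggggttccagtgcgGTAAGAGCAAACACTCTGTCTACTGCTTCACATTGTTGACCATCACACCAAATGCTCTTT
Ncf1-203, intron 2 into exon 3: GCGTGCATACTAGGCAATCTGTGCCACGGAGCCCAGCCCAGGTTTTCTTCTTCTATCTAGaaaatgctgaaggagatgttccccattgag
Ncf1-205, exon 10 into intron 10: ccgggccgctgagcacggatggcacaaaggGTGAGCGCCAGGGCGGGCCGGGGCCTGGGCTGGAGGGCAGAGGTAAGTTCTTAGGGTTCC
Sod2-203, intron 2 into exon 3: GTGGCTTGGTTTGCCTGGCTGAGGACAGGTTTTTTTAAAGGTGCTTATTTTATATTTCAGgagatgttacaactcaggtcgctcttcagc
Sod1-202, exon 1 into intron 1: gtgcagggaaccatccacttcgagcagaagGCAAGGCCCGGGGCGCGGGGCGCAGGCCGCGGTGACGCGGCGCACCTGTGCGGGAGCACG
The introns of Cybb and Ncf1 that follow an exon open with GT, and those of Ncf1 and Sod2 that precede one end with AG, the usual splice site letters. Intron 1 of Sod1 opens with GC.

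Among the 8 genes, 7 had at least 1 TPM in every library, where 42.6% of all protein-coding genes did. Sod2, Ncf1 and Cybb had the highest mean levels, Ncf4, Cyba, Rac2 and Sod1 lay between 7.62 and 41.2 TPM on average, and Nos2 was near the floor. The median over the 8 genes was 28.3, 25.0 and 38.7 TPM in replicates 1, 2 and 3, beside 0.59, 0.38 and 0.69 TPM over the protein-coding genes. In order of the mean in the gene table, the ranges over libraries overlapped between Sod2 and Ncf1, Ncf1 and Cybb, Cybb and Ncf4, and Rac2 and Sod1. They did not overlap between Ncf4 and Cyba, Cyba and Rac2, or Sod1 and Nos2. In the second quantification the order and the overlaps differed: Ncf4 averaged 117 TPM, above Cybb at 111 TPM, the range of Cyba overlapped those of Ncf4 and Rac2, and those of Rac2 and Sod1 did not overlap. TPM are per length, which allows levels to be set side by side between genes, but they also depend on which isoforms take the counts. In replicate 1 the 334-base Sod2-203 held 74.15% of the TPM of Sod2 from 11.3% of its counts. The order of the genes by TPM thus rests in part on the split between isoforms. In bulk RNA, fewer cells with a transcript and less of it per cell cannot be told apart.

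**Figure D1:**
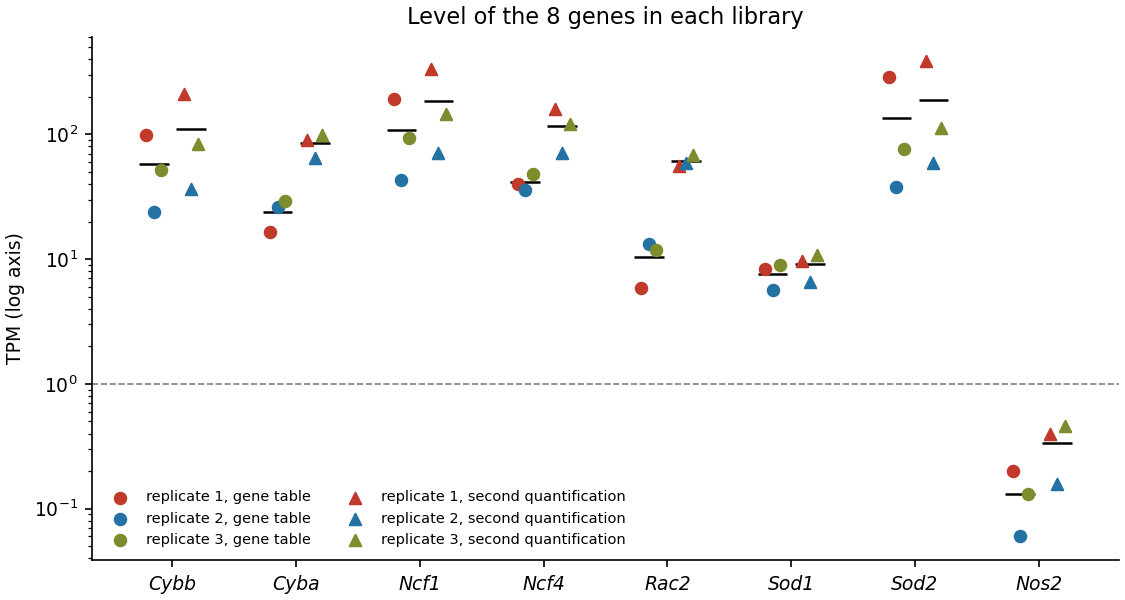
TPM (log axis) of each of the 8 genes in replicates 1, 2 and 3, in the gene table (circles) and in the second quantification (triangles), with the mean as a black line and 1 TPM dashed. Sod2, Ncf1 and Cybb are highest in replicate 1 in both, and Nos2 lies below 1 TPM throughout. All 8 genes stand higher in the second quantification in every library, Cyba and Rac2 at least 2-fold in each.

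Cybb encodes NOX2, the catalytic subunit that carries the flavin and haem groups, and lies on chrX:9435252-9487771 (minus strand, mm10). It stood at 98.6, 23.8 and 51.4 TPM in replicates 1, 2 and 3, from 1751, 1470 and 1440 expected counts, with a mean of 58.0 ± 37.8 TPM (SD, n = 3). Replicate 1 was thus the highest by TPM although its library was the shallowest. Cyba, on chr8:122424776-122432930 (minus strand), encodes the smaller membrane subunit that stabilises NOX2 and docks the cytosolic subunits. Its level was 16.6, 26.3 and 29.4 TPM in replicates 1, 2 and 3, from 118, 408 and 221 counts, a mean of 24.1 ± 6.68 TPM (SD, n = 3). The partners of the flavocytochrome did not share an order in the gene table: Cybb exceeded Cyba 5.95-fold in replicate 1 and 1.75-fold in replicate 3, whereas in replicate 2 the ratio of Cybb to Cyba was 0.907. In the second quantification that ratio was 2.35, 0.571 and 0.845 in replicates 1, 2 and 3, so the order in replicate 3 turned. The gene Gm20388 on the other strand spans the whole of Cyba without an exon in it, and had 2.74 to 4.18 TPM.

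Ncf1, on chr5:134220053-134229625 (minus strand), encodes the organiser subunit that is phosphorylated when the oxidase is switched on. Its level was 191, 42.8 and 93.7 TPM in replicates 1, 2 and 3, from 4270, 2102 and 2304 counts, a mean of 109 ± 75.2 TPM (SD, n = 3). In gene table TPM, Ncf1 and Cybb kept nearly the same ratio in every library, 1.94, 1.80 and 1.82 of Ncf1 over Cybb. In the second quantification that ratio was 1.58, 1.94 and 1.75 in replicates 1, 2 and 3. By counts it was less even, at 4270 over 1751 in replicate 1 and 2102 over 1470 in replicate 2. Ncf4, on chr15:78244801-78262580 (plus strand), encodes the cytosolic subunit that binds a phosphoinositide of the phagosome membrane. It had 40.0, 35.6 and 48.1 TPM in replicates 1, 2 and 3, from 336, 620 and 447 counts, a mean of 41.2 ± 6.33 TPM (SD, n = 3). Its libraries lay close together where those of Ncf1 did not. Rac2, on chr15:78559167-78572783 (minus strand), encodes the GTPase of blood cells that binds the assembled oxidase. It reached 5.84, 13.3 and 11.9 TPM in replicates 1, 2 and 3, from 225, 364 and 347 counts, a mean of 10.4 ± 3.98 TPM (SD, n = 3). Replicate 1 was its lowest library.

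Sod2, on chr17:13006846-13040063 (plus strand), was the highest of the 8 genes in the mean and the most uneven. Its libraries gave 288, 38.1 and 77.0 TPM for replicates 1, 2 and 3, from 3512, 1305 and 1369 counts, a mean of 135 ± 135 TPM (SD, n = 3). Replicate 1 carried most of that mean: without it Sod2 averaged 57.6 TPM, Ncf1 68.2 TPM and Cybb 37.6 TPM. In the gene table Ncf1 exceeded Sod2 in the other libraries. Sod1, on chr16:90220754-90226329 (plus strand), had 8.27, 5.61 and 8.98 TPM in replicates 1, 2 and 3, from 365, 485 and 464 counts, a mean of 7.62 ± 1.78 TPM (SD, n = 3). Sod2 was above Sod1 in all 3 libraries, by 34.9-fold, 6.80-fold and 8.58-fold, a difference of 3.50 ± 1.28 in log2(TPM + 1) (SD, n = 3). The gap was narrower between the isoforms with most counts, which are of unlike kinds. Sod2-201, which is spliced, was at 37.1, 5.93 and 12.8 TPM in replicates 1, 2 and 3. Sod1-202, which keeps introns, was at 6.98, 3.93 and 7.83 TPM. The spliced Sod1-201 was at 1.3, 1.68 and 1.15 TPM, so the gap depends on which isoforms are compared. With 3 libraries an exact sign-flip test cannot go below p = 0.25, so none was used. At its 3′ end, 650 bases of Sod1 are shared with Scaf4 on the other strand, whose isoform with an exon there, Scaf4-207, had no count.

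Nos2, on chr11:78920787-78960254 (plus strand), had 0.20, 0.06 and 0.13 TPM in replicates 1, 2 and 3, a mean of 0.13 ± 0.07 TPM (SD, n = 3). These values rest on 11, 7 and 8 counts, with exact 95% Poisson intervals of 5.49 to 19.7, 2.81 to 14.4 and 3.45 to 15.8 counts, which cover counting error only. All were above the 3 counts taken as the floor, worth 0.055, 0.026 and 0.049 TPM in replicates 1, 2 and 3. Every one of these counts was assigned to the full-length coding isoform Nos2-201. Sod1, the next gene up in level, exceeded Nos2 41.3-fold, 93.5-fold and 69.1-fold in replicates 1, 2 and 3, and 24.6-fold, 41.6-fold and 23.6-fold in the second quantification.

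To compare libraries within a gene, TPM was scaled so that protein-coding genes summed to the same total in each. The highest library then exceeded the lowest 5.27-fold for Sod2, 3.27-fold for Rac2, 3.11-fold for Ncf1, 2.89-fold for Cybb, 2.27-fold for Cyba, 1.28-fold for Ncf4 and 1.05-fold for Sod1. Of the 7 genes with a mean of at least 5 TPM, 5 differed at least 2-fold between libraries, against 13.2% of the 6876 protein-coding genes at that level, whose median ratio was 1.42. A ratio as large as that of Sod2 was found in 27 of those genes, 0.393%. In scaled TPM the genes divided by direction. Sod2, Ncf1 and Cybb, 3 of 7, were highest in replicate 1, as were 36.3% of the 6876 genes. Cyba, Ncf4 and Rac2, another 3 of 7, were lowest there, as were 42.9%. Both shares were near the background. Without replicate 1 the ratio of Sod2 was 1.33 and 0 of the 7 genes reached 2-fold, beside 2.79% of the 6876. Without replicate 2, 3 of 7 did, Cybb, Ncf1 and Sod2, beside 2.75%, and without replicate 3 the same 5 of 7 did, beside 11.6%. The 2-fold ranges of Sod2, Ncf1 and Cybb thus need replicate 1, and those of Cyba and Rac2 need both replicates 1 and 2. Replicate 1 also had the largest amount of starting RNA and the lowest depth, and replicate 2 the smallest amount and the highest depth. The part of those differences in the result was not tested.

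The spread also depended on the measure used. With counts per kb scaled by TMM factors, 3 of the 7 genes differed at least 2-fold, beside 15.6% of the 6876 genes. Sod2 differed 3.74-fold, Ncf1 2.83-fold and Cyba 2.49-fold, while Cybb differed 1.66-fold and Rac2 1.27-fold. This measure changes both the library scaling and the treatment of length, so it cannot assign the spread to counts or isoform lengths. Counts divided by library depth alone differed 5.24-fold for Sod2, 3.96-fold for Ncf1, 2.32-fold for Cybb, 1.775-fold for Cyba and 1.42-fold for Rac2. Cybb thus passed 2-fold there without any division by length, and Cyba did not. By those counts Ncf4 and Rac2 were lowest in replicate 2, and Cyba in replicate 1. In the second quantification scaled to protein-coding TPM, Cyba and Rac2 were lowest in replicate 1. Ncf4 was instead highest in replicate 1, at 135, 102 and 108 TPM in replicates 1, 2 and 3. For Rac2 the gene's effective length was 2834, 863 and 1858 bases in replicates 1, 2 and 3, since TPM weights its isoforms by abundance. The short isoform Rac2-203, of 254 bases, took 8.48 of the 13.3 TPM in replicate 2 from 13.4 counts, and none in replicate 1. The full-length Rac2-201 alone stood at 5.37, 5.11 and 6.82 scaled TPM, a 1.33-fold range. For Cybb, the full-length Cybb-201 stood at 15.3, 11.1 and 14.0 scaled TPM, a 1.38-fold range, and the intron-bearing Cybb-202 at 59.4, 12.7 and 18.6, a 4.68-fold range. The excess of Cybb in replicate 1 thus lay mostly in the isoform that stops in intron 3. For Sod2 the full-length Sod2-201 kept a wide range, with 34.1, 7.81 and 11.1 scaled TPM, 4.36-fold.

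**Figure D2:**
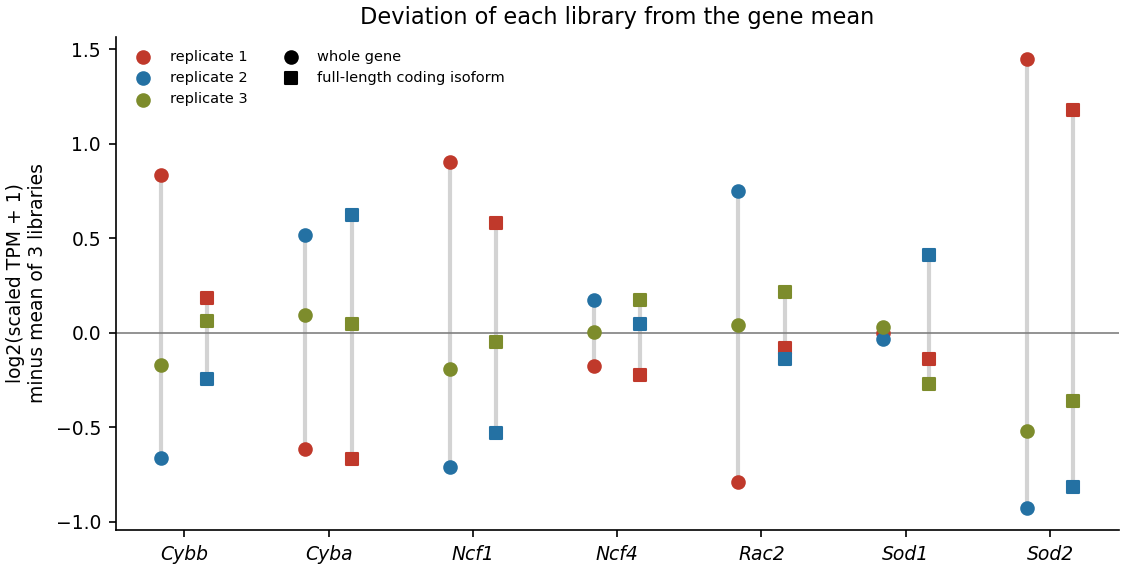
Deviation of each library from the mean of the 3 libraries, in log2(scaled TPM + 1), for 7 genes as a whole (circles) and for the full-length coding isoform alone (squares), with replicates 1, 2 and 3 in colour. Sod2 is high in replicate 1 in both, whereas the spread of Cybb and Rac2 is much narrower in the full-length isoform. The spread of Cyba and Sod1 is wider in that isoform, which for Sod1 rests on 7.70, 21.2 and 7.13 counts.

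Of the 7 genes, 5 have an annotated retained-intron isoform: Cybb, Ncf1, Ncf4, Sod1 and Sod2. By TPM these isoforms held at least 50% of the gene in every library for 4 of the 5, all but Ncf1, beside 36.5% of the 4954 genes of that level with such an isoform. By expected counts they did so for Sod1 alone, 1 of 5, beside 23.6% of those genes. TPM divides by length and many of these isoforms are short fragments, so a small number of counts on a fragment can outweigh a much larger number on the full transcript.

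Sod2 showed the widest gap. Its retained-intron isoforms held 86.7%, 82.5% and 81.3% of the TPM in replicates 1, 2 and 3, but 16.9%, 12.1% and 10.7% of the counts. Sod2-203, of 334 bases, holds 180 bases of intron 2, exon 3 and the start of exon 4, and its border is printed above. It took 398, 86.6 and 86.0 counts, which gave 74.2%, 66.3% and 67.7% of the gene's TPM. The full-length Sod2-201, of 5861 bases, took 2852, 1055 and 1127 counts and 12.9%, 15.6% and 16.6% of the TPM. On the full-length isoform alone the order of Sod2 and Ncf1 turned round in the mean: Sod2-201 was at 37.1, 5.93 and 12.8 TPM, and Ncf1-202 at 48.0, 15.0 and 32.3 TPM, higher in all 3 libraries.

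In Sod1 nearly all counts were on Sod1-202, of 3970 bases, which keeps introns 1 and 2. It took 357, 464 and 457 counts in replicates 1, 2 and 3, and the spliced Sod1-201 took 7.70, 21.2 and 7.13 counts. That is 97.9%, 95.6% and 98.5% of the counts on the isoform with introns. The 641-base Sod1-201 is short, so its share of TPM was larger, at 15.7%, 29.9% and 12.8%. A level of Sod1 read from the spliced isoform alone would be 1.15 to 1.68 TPM.

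Cybb-202 takes the first 2 exons and exon 3 of Cybb and runs 656 bases into intron 3, as its printed border shows. It held 637, 210 and 229 counts in replicates 1, 2 and 3, beside 1029, 1201 and 1141 on Cybb-201. With Cybb-203, which runs past exon 8, the retained-intron isoforms took 41.3%, 18.3% and 20.8% of the counts and 83.1%, 64.7% and 68.6% of the TPM. Replicate 1 was highest on both measures. Ncf4 has 4 such isoforms, which took 44.9%, 40.5% and 34.0% of the counts and 72.2%, 71.6% and 67.0% of the TPM, with little difference between libraries by TPM.

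In Ncf1 the retained-intron isoforms took 45.4%, 45.4% and 45.9% of the TPM in replicates 1, 2 and 3, but 14.0%, 13.8% and 13.3% of the counts. They were led by Ncf1-203, which begins in intron 2. A further isoform, Ncf1-205, is annotated as coding but keeps the 161 bases of intron 10. It held 1944, 570 and 676 counts, 45.5%, 27.1% and 29.3% of the gene's counts in replicates 1, 2 and 3, and differed 5.46-fold in scaled TPM where the spliced Ncf1-202 differed 2.22-fold. The 3′ part of Ncf1 is shared with Gtf2ird2 on the plus strand, over 4303 bases or 44.9% of Ncf1. The Gtf2ird2 isoform with exons there, Gtf2ird2-202, has 4 exons inside Ncf1, which share 282 bases with exons of Ncf1-202, and took 1821, 781 and 775 counts. Whether counting used the strand is not given in the sources used here, so reads of Ncf1 and Gtf2ird2 over the shared bases may not be told apart, and the part of this in the values of Ncf1 and Ncf1-205 was not tested. Gtf2ird2-201, which has no exon in Ncf1, was also highest in replicate 1, with 876, 263 and 246 counts in replicates 1, 2 and 3.

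**Figure D3:**
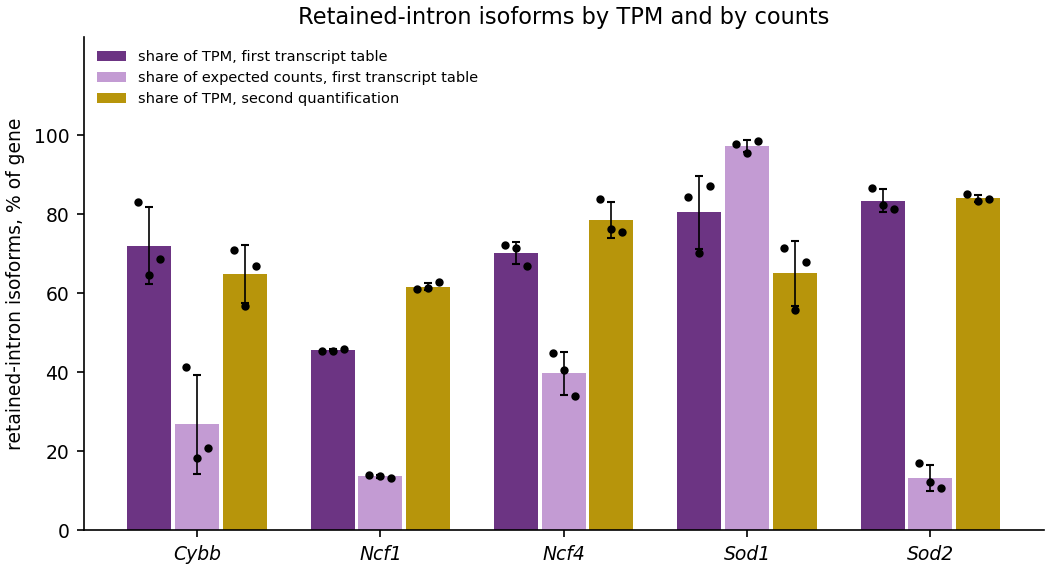
Share of each gene in retained-intron isoforms, in percent, as bars of the mean with SD over 3 libraries and a point per library from replicate 1 to replicate 3, by TPM and by expected counts of the first transcript table and by TPM of the second quantification. By counts the share of Sod2 is 13.3% on average and by TPM 83.5%, and Sod1 is above 50% in every library on all 3 measures.

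**Figure D4:**
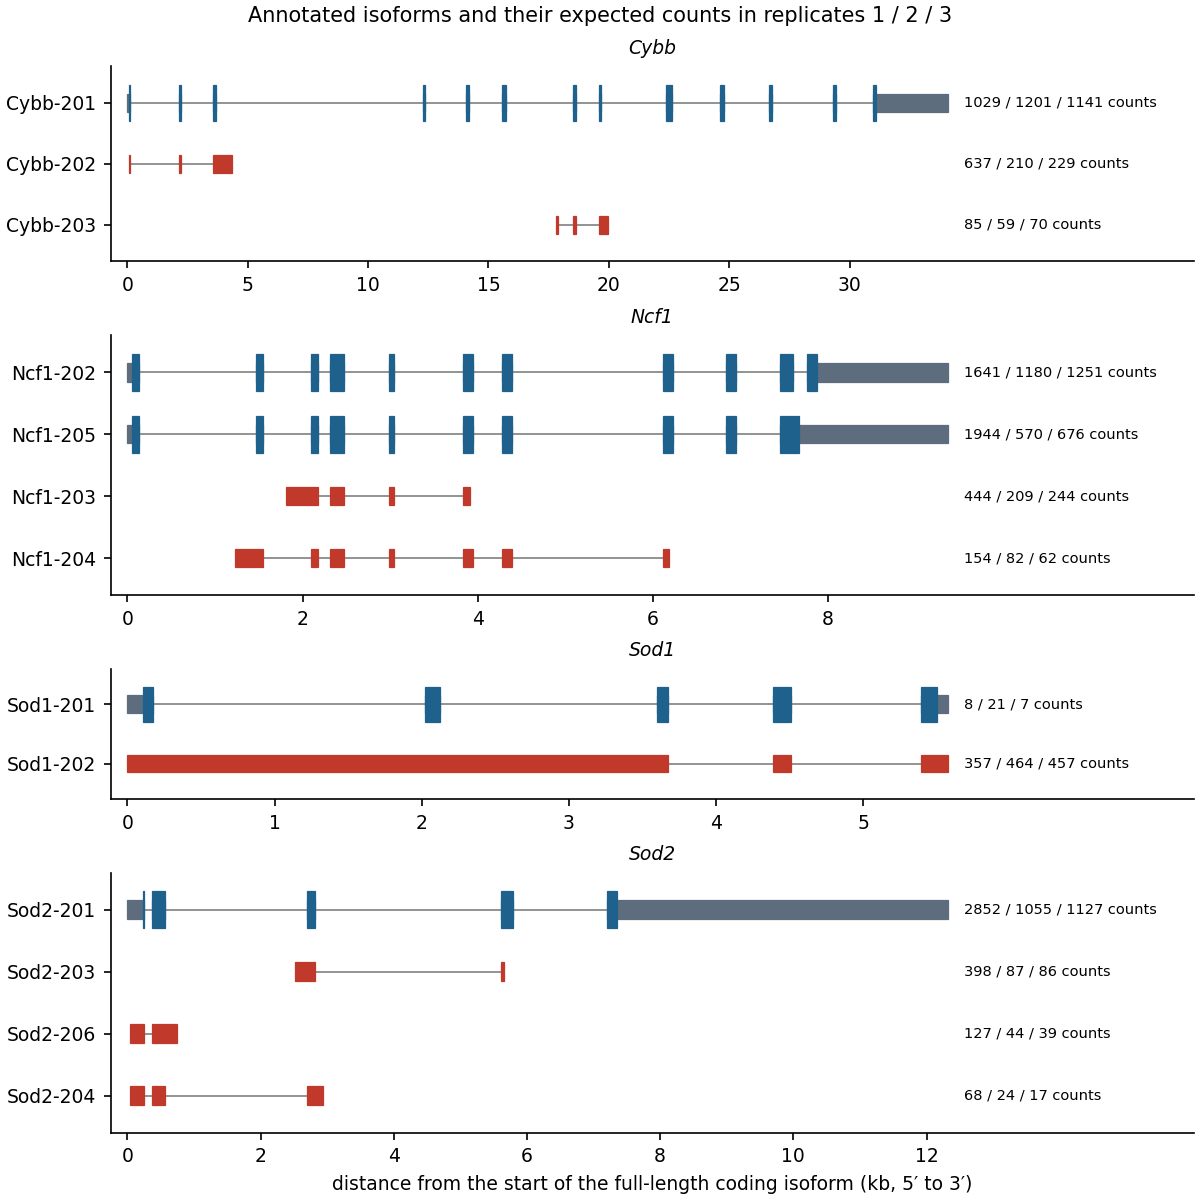
Annotated isoforms of Cybb, Ncf1, Sod1 and Sod2 drawn to scale by distance in kb from the start of the full-length coding isoform, with coding bases as tall blue boxes, other exon bases in grey, retained-intron isoforms in red, and expected counts in replicates 1, 2 and 3 at the right. Sod1-202 begins with a single block that runs from exon 1 to exon 3, and Sod2-203 is a short piece around exon 3.

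The second quantification gave higher levels for every gene in every library. Rac2 was at 55.5, 58.8 and 68.4 TPM there, 9.50, 4.42 and 5.74 times its level in the gene table in replicates 1, 2 and 3. Cyba was at 90.0, 64.5 and 99.2 TPM, 5.43, 2.45 and 3.38 times the gene table, and Ncf4 at 161, 70.8 and 120 TPM, 4.03, 1.99 and 2.50 times. Of the 7 genes, Cyba and Rac2, 2 of 7, stood at least 2-fold higher in every library, beside 15.5% of the 6876 genes. The median over the 8 genes of log2 of gene table over second quantification was -0.76, beside -0.59 over the 6876 genes. Sod1 moved least of the 7, at 9.75, 6.60 and 10.8 TPM. Much of the rise of Rac2 was in its short isoforms, Rac2-203 at 26.9, 23.7 and 24.8 TPM and Rac2-202 at 19.3, 29.5 and 33.3 TPM, while Rac2-201 was at 9.32, 5.68 and 10.4 TPM. For Cyba, Cyba-203, annotated without a coding frame, was at 4.46, 3.79 and 5.62 TPM in the first transcript table and at 42.4, 27.5 and 51.4 TPM in the second quantification. Nos2 stayed lowest, with 0.40, 0.16 and 0.46 TPM.

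The promoters of Sod2, Ncf1 and Cybb, are printed as those of the 3 genes with the highest mean levels in the gene table. They are up to 250 bases before the RefSeq start site on GRCm38.p6, with the bases of Sod2 that GENCODE places in an exon left off: Sod2 on chr17:13007589-13007816 (plus strand), Ncf1 on chr5:134229626-134229875 (minus strand) and Cybb on chrX:9469325-9469574 (minus strand). Capitals mark matches on either strand to GGGCGG, the core of Sp1 sites, GAGGAA, the core of PU.1 sites, GGGNNNNNCC, a loose form of the NF-kB site, TGANTCA, an AP-1 site, and CCAAT, where some matches overlap.
Sod2: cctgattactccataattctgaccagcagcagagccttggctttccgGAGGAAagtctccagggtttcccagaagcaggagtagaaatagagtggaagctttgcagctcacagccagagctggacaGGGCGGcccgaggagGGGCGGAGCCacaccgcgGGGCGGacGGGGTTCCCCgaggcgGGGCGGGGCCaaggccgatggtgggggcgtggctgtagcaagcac
Ncf1: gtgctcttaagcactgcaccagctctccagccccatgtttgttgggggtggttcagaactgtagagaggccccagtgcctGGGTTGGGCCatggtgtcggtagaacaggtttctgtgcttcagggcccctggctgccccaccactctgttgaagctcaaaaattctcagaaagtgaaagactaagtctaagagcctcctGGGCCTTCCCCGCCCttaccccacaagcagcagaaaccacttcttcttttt
Cybb: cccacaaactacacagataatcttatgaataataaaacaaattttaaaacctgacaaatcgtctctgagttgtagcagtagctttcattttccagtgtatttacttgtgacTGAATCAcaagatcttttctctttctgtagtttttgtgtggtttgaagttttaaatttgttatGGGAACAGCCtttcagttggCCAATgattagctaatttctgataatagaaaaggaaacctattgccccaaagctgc
In windows of 300 bases that run on past the start site, Sod2 had 4 Sp1 matches and 3 NF-kB matches, which overlap in part. It also had 1 match each of PU.1 and the CCAAT box, the latter at -12 in the exon bases left off. Ncf1 had 4 NF-kB matches, at -170, -51, -50 and 11 from the start site, and 1 of Sp1 at -42. Those at -51, -50 and -42 overlap, and that at 11 lies after the start site. Cybb had 1 match each of AP-1, the CCAAT box, NF-kB and PU.1, that of PU.1 lying after the start site. Among 32851 promoter windows of the same length, 35.7% held the Sp1 letters, 28.3% those of PU.1, 50.8% those of NF-kB, 7.81% those of AP-1 and 37.4% the CCAAT box. Of the other genes with a window, Cyba, which was lowest in replicate 1, had 5 NF-kB matches and 2 of Sp1. Sod1, whose whole-gene level was even across libraries after scaling, had 4 Sp1 matches and 1 each of NF-kB and the CCAAT box. In Cyba and in Sod1 some of the matches overlap. A match describes letters and not binding.

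By the distance between log2 profiles over the 3 libraries, among 4730 protein-coding genes with a mean of at least 10 TPM, the genes nearest to Sod2 were Irf1, Ctsc and Tnf. Irf1, an interferon regulatory factor, was at 622, 79.2 and 175 TPM in replicates 1, 2 and 3, at a Euclidean distance of 0.093. Ctsc, which encodes cathepsin C, was at 264, 38.7 and 71.3 TPM with a distance of 0.11, and the cytokine gene Tnf at 156, 22.6 and 48.6 TPM with a distance of 0.16. Those nearest to Cybb were the phosphatase gene Dusp2, at 148, 34.5 and 73.2 TPM and a distance of 0.059, Insig1, a regulator of sterol synthesis, at 77.7, 19.9 and 40.6 TPM and 0.068, and the kinase gene Stk17b, at 48.3, 12.3 and 26.7 TPM and 0.082. Each profile has only 3 points, so a small distance is a description of these libraries.

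Of 13 oxidase partners, 4 had at least 1 TPM in all libraries, beside 42.6% of all protein-coding genes. The 4 were Rac1, Rap1a, Cybc1 and Hvcn1. Rac1, the GTPase found in most tissues, was at 9.90, 5.14 and 10.2 TPM in replicates 1, 2 and 3, with a range over libraries that overlapped that of Rac2. Rap1a averaged 12.8 ± 6.04 TPM and Cybc1, a chaperone of the flavocytochrome, 12.4 ± 3.35 TPM (SD, n = 3 each). Among the oxidases of other tissues and their partners, Noxa1, Duox2, Duoxa1 and Duoxa2 had no count in the gene table and Nox1 averaged 0.313 TPM, while Noxo1 was at 1.48, 0.59 and 1.69 TPM in replicates 1, 2 and 3. Nox4 had 0, 2 and 0 counts in the gene table but 16.3, 11.5 and 12.5 TPM in the second quantification, so its level was not settled by these tables.

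All 16 genes that act in oxidase activation had at least 1 TPM in every library, beside 42.6% of all protein-coding genes. Dock2, an exchange factor for Rac, averaged 254 ± 23.4 TPM, the kinase gene Prkcd, whose product phosphorylates the organiser subunit, 194 ± 40.8 TPM, and the kinase gene Syk 185 ± 33.1 TPM (SD, n = 3 each). Each of the 3 was above the mean of every oxidase member. Of 19 genes for removing superoxide and peroxide, 17 had at least 1 TPM in all libraries, beside the same 42.6%. Their highest was the peroxiredoxin gene Prdx1 at 89.1 ± 11.3 TPM. The thioredoxin reductase gene Txnrd1 averaged 37.7 ± 8.63 TPM and the glutathione peroxidase gene Gpx1 37.4 ± 9.66 TPM (SD, n = 3 each). The extracellular dismutase gene Sod3 had 0, 2 and 0 counts. Sod2 was thus above Prdx1 in the mean, but below it in replicates 2 and 3.

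Of 14 genes for nitric oxide synthesis and arginine use, 6 had at least 1 TPM in all libraries, a share like the 42.6% of all protein-coding genes. Pts, which acts in making the cofactor tetrahydrobiopterin, averaged 22.1 ± 9.33 TPM, Nosip 14.0 ± 3.23 TPM and Asl, which acts in recycling arginine, 10.7 ± 1.47 TPM (SD, n = 3 each). Nos1 had no count and Nos3 had 0, 1 and 0 counts, so no nitric oxide synthase gene reached 1 TPM in the gene table. In the second quantification Nos1 was at 0.788, 0.871 and 1.39 TPM in replicates 1, 2 and 3. The granulocyte peroxidase genes Mpo, Epx and Lpo had at most 1 count in a library of the gene table, and Mpo averaged 1.49 TPM in the second quantification.

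**Figure D5:**
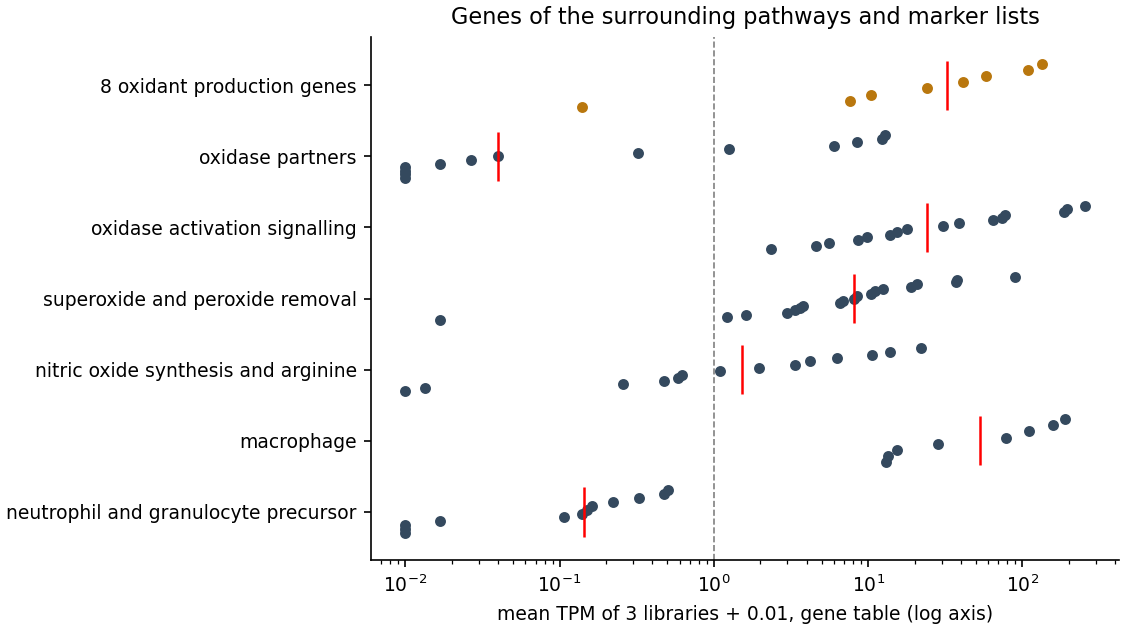
Mean TPM of the 3 libraries in the gene table with 0.01 added, on a log axis, for the 8 genes (top row) and the genes of 4 pathway lists and 2 marker lists, with a point per gene, a red line at the median and a dashed line at 1 TPM. The activation genes and macrophage markers lie above 1 TPM, the neutrophil markers lie below it, and 8 of the 13 oxidase partners lie below it.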

How the data were processed

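Chromatin RNA of 3 libraries was analysed, as 1 group with replicate numbers from the labels. The authors' deposited gene and first transcript tables hold expected counts, TPM and the percent of a gene's TPM in each isoform, per the file headers. The first transcript table came from transcriptome alignments and a further deposited table, the second quantification, from the reads directly; it holds estimated counts and TPM. Reads were placed on mm10 with GENCODE M21, per the deposited text, and the fragment size range was 250 to 400, per the labels; the aligner, the counting programs and whether strand was used were not given in the sources used here.

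Levels are TPM of the gene tables with mean and SD over libraries. Scaled TPM was set to equal sums over protein-coding genes in each library. Differences used log2(TPM + 1), which understates those of low genes. The floor was 3 counts; intervals cover counting error only, since PCR copies could not be told from molecules. TMM factors came from edgeR 4.0.16 and size factors from DESeq2 1.42.0 in R 4.3.3 on rounded expected counts, and no count test was run, since there is 1 group. Other steps used Python 3.11.15, numpy 2.4.6, pandas 2.3.3, scipy 1.17.1 and matplotlib 3.10.9. The TMM and DESeq2 factors were tested on simulated counts, and the scaling to protein-coding TPM was not. The simulated libraries had the same expression profile apart from genes raised in replicate 1. They thus did not test the factors under differing protein-coding shares such as those of these libraries.

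The 8 genes and the lists were chosen with earlier results of these data known. Named genes are the 8, the 3 highest of each pathway or macrophage list, the lowest where a count of undetected genes is given, Rac1, and the 3 genes nearest in profile to Sod2 and Cybb. Hvcn1, Nox1, Nox4, Gm20388, Scaf4 and Gtf2ird2 were added after their values were seen. A further listed gene is not reported here. Sequences came from GENCODE M21 transcripts and from RefSeq promoters on GRCm38.p6, which matched 5 of the 8 genes (Cybb, Cyba, Ncf1, Sod1 and Sod2). Ncf4, Rac2 and Nos2 had no entry there. Alternatives tried were the second quantification, other scalings, other thresholds and pseudocounts, and leaving out each library.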

Additional observations from a re-analysis of the deposited data

How the results depend on the processing

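The number of genes at 1 TPM or more in every library was 7 under all alternatives run: the second quantification, 3 other scalings, thresholds of 0.5 and 5 TPM, and without each library. Sod2 exceeded Sod1 in the second quantification, under 3 other scalings, with a pseudocount of 0.1 and without each library, with a mean log2 difference of 2.77 to 3.97, and the gene table stayed below the second quantification without each library and with a pseudocount of 0.1. Single isoforms of Sod2 and Sod1 were not among the settings. Between Sod2-201 and the intron-bearing Sod1-202 the gap was narrower, and the spliced Sod1-201 lay below Sod1-202. The median level of the 8 genes was 30.7 TPM, and 92.0 TPM in the second quantification, where 6 of 8 single levels moved by more than 1 SD. Without replicate 1 the mean was 57.6 TPM for Sod2 in place of 135, 68.2 for Ncf1 in place of 109, and 37.6 for Cybb in place of 58.0. The number of genes with at least a 2-fold range, 5 in the main analysis beside 13.2% of the 6876 genes, was 3 with the second quantification (Cybb, Ncf1 and Sod2, beside 8.87%), 3 with TMM (beside 15.6%) and 3 with DESeq2 scaling (beside 16.4%), Cyba, Ncf1 and Sod2 both times. It was 0 to 5 without 1 library: 0 without replicate 1 (beside 2.79%), 3 without replicate 2 (beside 2.75%) and 5 without replicate 3 (beside 11.6%). The Sod2 range, 5.27-fold, was 1.33 to 5.27 without 1 library, the lowest without replicate 1. The mean log2 difference of Sod2 over Ncf1, 0.05, was -0.95 on the full-length isoforms, a setting that leaves out every other isoform. All 5 retained-intron shares moved by more than 1 SD when taken of counts, and 3 of 5 did in the second quantification. With the background limited to genes of at least 0.1 TPM on average, 72.7% of protein-coding genes had 1 TPM in all libraries, in place of 42.6%. The pseudocount enters only the log2 differences. All alternatives for the count of genes past 2-fold (TMM, DESeq2, the second quantification and leaving out each library), the full-length isoforms, deposited TPM for the Sod2 range, and the alternatives for gene table against second quantification were chosen after the data were seen. No paired analysis was possible because there is 1 group.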
